A study of Rattus norvegicus with 3 samples.

Results

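The genes described here are 9 of 15924 named on the array, namely Selenop, Gys2, Clec2l, Pde9a, Abcd2, Igf2, Slc1a3, Pdcd4 and Spata46. They were selected on their CNT-2 minus control difference, a large negative one, so that difference describes the choice and carries no test. Cultures of NR8383, an established line of rat alveolar macrophages, were kept for 24 h with 1 of 2 kinds of single-wall carbon nanotubes free of impurities, CNT-1 or CNT-2, at a dose of 0.1 mg/mL. The nanotubes were carried in bovine serum albumin at 1 mg/mL, and the control is named in the labels both as untreated and as an albumin solvent control, so whether it held albumin is not settled. No source used here says how the 2 nanotubes differ. Total RNA was labelled with Cy3 and read on 1-colour Agilent arrays. Each of the 3 groups had 1 column of values, so the differences have no replicate check. An n of 4 stands in the design text, and what it counts is not said there. All groups share the line NR8383, which stands for alveolar macrophages as a single line grown in culture.

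The 9 genes have no common pathway. Selenop encodes a secreted protein rich in selenocysteine that carries selenium from the liver to other tissues, and Igf2 a growth factor of fetal life that acts through receptors shared with insulin and is expressed from the paternal allele. Gys2 is the liver form of glycogen synthase, and Pde9a a phosphodiesterase that breaks down cyclic GMP with high affinity. Abcd2 carries very long-chain fatty acyl-CoA into peroxisomes, and Slc1a3 takes up glutamate, a task for which it is best known in astrocytes. Clec2l is a C-type lectin-like membrane protein known mainly from the brain. Pdcd4 binds the RNA helicase eIF4A and restrains translation initiation. Spata46 is named for its part in spermatogenesis. Alveolar macrophages clear inhaled particles from the lung surface, and several of these genes are better known from liver, brain or testis than from phagocytes.

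Regulatory sequence is shown first for the genes with the lowest values, to let their promoters be compared. The RefSeq promoter table of build GRCr8 held windows of 300 bases, 250 before and 50 after a start site, for 8 of the 9 genes, 12 windows in all. Pde9a was the gene without one. The 250 bases before the start site are printed 5′ to 3′ on the strand of the gene. Capitals mark the matches found to the motifs searched.
Selenop: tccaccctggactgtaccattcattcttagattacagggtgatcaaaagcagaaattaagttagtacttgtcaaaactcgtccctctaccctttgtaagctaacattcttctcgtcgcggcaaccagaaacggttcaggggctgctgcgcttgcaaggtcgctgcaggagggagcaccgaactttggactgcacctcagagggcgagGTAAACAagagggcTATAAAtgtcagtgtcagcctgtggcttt
Clec2l: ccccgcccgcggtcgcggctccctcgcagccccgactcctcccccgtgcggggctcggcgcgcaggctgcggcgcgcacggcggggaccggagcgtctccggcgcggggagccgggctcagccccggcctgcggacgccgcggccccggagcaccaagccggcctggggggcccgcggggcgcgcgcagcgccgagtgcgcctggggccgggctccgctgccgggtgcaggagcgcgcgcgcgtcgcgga
Gys2: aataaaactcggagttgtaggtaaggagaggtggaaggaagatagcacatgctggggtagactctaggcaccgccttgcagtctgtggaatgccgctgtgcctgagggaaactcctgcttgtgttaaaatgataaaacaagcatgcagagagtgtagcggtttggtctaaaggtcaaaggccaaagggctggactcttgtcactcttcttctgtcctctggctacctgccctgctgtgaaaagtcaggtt
Spata46: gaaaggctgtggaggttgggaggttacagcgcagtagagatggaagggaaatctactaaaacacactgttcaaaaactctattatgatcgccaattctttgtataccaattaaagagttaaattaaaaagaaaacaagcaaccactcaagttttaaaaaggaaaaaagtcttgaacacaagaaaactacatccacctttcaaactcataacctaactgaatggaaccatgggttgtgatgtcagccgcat
They lie at chr2:54225662-54225911 (+ strand) for Selenop, chr4:68364910-68365159 (+ strand) for Clec2l, chr4:177137237-177137486 (- strand) for Gys2 and chr13:85073692-85073941 (+ strand) for Spata46. Selenop has a second listed start site, not printed.

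The windows were searched on both strands for GTAAACA (a FoxO-type motif), CACGTG (an E-box form), TATAAA (the TATA box) and TGACTCA (the AP-1 motif). No match overlapped another, and other forms of the E-box were not searched for. The printed Selenop window held GTAAACA at position -43 and TATAAA at -29, counted back from -1, the base before the start site. GTAAACA was present in 3.78% and TATAAA in 14.2% of all 33469 windows of the table. CACGTG and TGACTCA, present in 6.42% and 4.63% of all windows, were in none of the 12. Of the 8 genes with a window, 7 held no match to any of the motifs, which says only that these letters are not in these windows. The base composition also differed widely. G and C made up 85.2% of the printed bases of Clec2l, 49.6% of those of Gys2 and of Selenop, and 37.2% of those of Spata46. Over the full windows the median per gene was 51.2% for the 8 genes and 52.3% for all 27457 genes of the table.

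The deposited values are differences from a baseline that was set for each probe and that is none of the 3 columns. They were read as log2 values from their range, and higher values were read as more RNA. The level of each probe is thus removed, so genes can be compared in how far they differ between columns and not in abundance. The value of a gene is the mean over its probes, and an SD over probes is technical spread within these arrays. Of the 9 genes, 3 had 2 probes and 6 had 1.

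**Figure D1:**
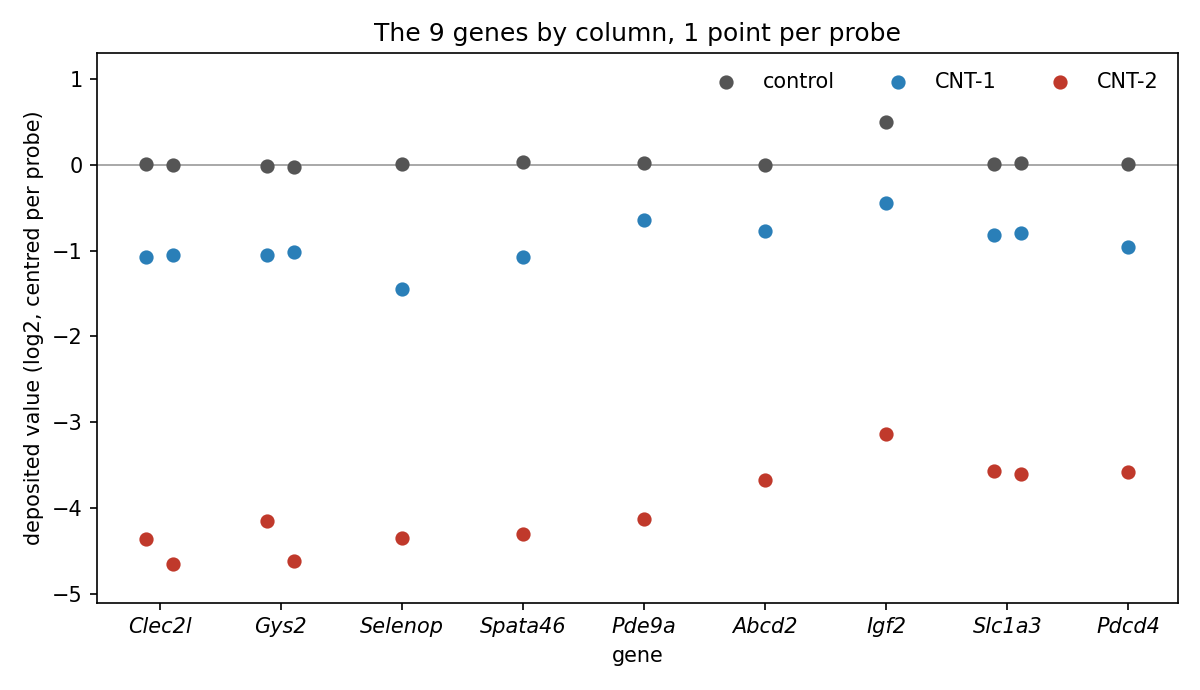
Deposited values (log2, centred per probe, vertical axis) of the 9 genes (horizontal axis) in the control, CNT-1 and CNT-2 columns, with 1 point per probe and no replicates. The CNT-2 points lie between -3.13 and -4.65, the CNT-1 points between -0.44 and -1.45, and the control points near 0 apart from Igf2 at 0.50.

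Among the secreted proteins, Selenop was at 0.008 in the control, -1.45 in CNT-1 and -4.35 in CNT-2. The difference between control and CNT-2 corresponds to 20.5-fold lower RNA on the presumed log2 base, from 1 probe. Selenop had the lowest CNT-1 value of the 9 genes. Igf2 was at 0.50 in the control, -0.44 in CNT-1 and -3.13 in CNT-2, also from 1 probe. It was the only one of the 9 whose control value lay more than 0.1 from 0, so its difference from control, -3.63 in CNT-2 and -0.94 in CNT-1, depends more than the others on the control column.

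The enzymes came next in role. Gys2 was at -0.017 in the control, -1.03 in CNT-1 and -4.38 in CNT-2, the mean of 2 probes. Its 2 probes were at -4.15 and -4.61 in CNT-2 and at -1.05 and -1.02 in CNT-1, so they differed in size in the CNT-2 column and hardly in the CNT-1 column. The difference of Gys2 from control was -4.36 ± 0.32 (probe SD, 2 probes) in CNT-2 and -1.01 ± 0.03 (probe SD, 2 probes) in CNT-1. Pde9a was at 0.023 in the control, -0.64 in CNT-1 and -4.12 in CNT-2. Pde9a had the smallest CNT-1 difference of the 9 as reported, -0.67, beside a CNT-2 difference of -4.14.

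The transporters had values close to each other. Abcd2 was at -0.008 in the control, -0.77 in CNT-1 and -3.67 in CNT-2, or 12.7-fold lower in CNT-2 than in the control. Slc1a3 was at 0.010 in the control, -0.81 in CNT-1 and -3.58 in CNT-2. Its 2 probes agreed closely, with a difference from control of -3.59 ± 0.04 in CNT-2 and -0.82 ± 0.01 in CNT-1 (probe SD, 2 probes).

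Of the other three genes, Clec2l lay lowest. Clec2l was at 0.006 in the control, -1.07 in CNT-1 and -4.51 in CNT-2, which is 22.9-fold lower in CNT-2 than in the control. Its probes were at -4.37 and -4.65 in CNT-2, with a probe SD of 0.20 for the difference. Pdcd4, the restraint on translation initiation, was at 0.009 in the control, -0.96 in CNT-1 and -3.58 in CNT-2. Spata46 was at 0.028 in the control, -1.08 in CNT-1 and -4.30 in CNT-2. The value of Spata46 comes from 1 probe named through its RefSeq accession, since the platform annotation carries only a provisional symbol.

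In the order of the CNT-2 difference, as reported, the 9 genes formed a lower and an upper group. Clec2l, Gys2, Selenop, Spata46 and Pde9a lay between -4.51 and -4.14. No step between neighbours in that order exceeded 0.187, the median probe SD of this difference over genes with 2 or more probes. The largest of these steps, 0.186 between Spata46 and Pde9a, was only just under it. Abcd2, Igf2, Slc1a3 and Pdcd4 lay between -3.67 and -3.59, with steps of 0.042 or less. The step between Pde9a and Abcd2, 0.48, was the only one above the probe SD. The non-members Cfp at -3.83 and Cxcl10 at -3.70 lie within that step and narrow it to 0.31 between Pde9a and Cfp. That is about the probe SD of Gys2 alone, 0.32, so the grouping only describes these values. With Igf2 included, these groups did not hold under quantile normalization, where Igf2 was the lowest of the 9 at -3.00. There the lower group lay between -2.70 for Clec2l and -2.39 for Gys2, and Slc1a3, Pdcd4 and Abcd2 between -2.11 and -2.04. That setting gives 1 distribution to columns of unlike width, from -0.996 to 2.951 in the control and from -5.715 to 8.817 in CNT-2.

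Across all genes, 6.56% were at least 1 log2 unit, or 2-fold, below control in CNT-2, and the 9 genes were among these by choice. They took places 2 to 5, 7 and 10 to 13 from the lowest of 15924. Sucnr1, the receptor for succinate, lay below all of them at -5.57. The other genes inside that span were Ptgs1, a cyclooxygenase that makes prostanoid precursors, at -4.28, with Cfp, the complement regulator properdin, and Cxcl10, a chemokine for activated T cells, at the values above. The first gene beyond the span was the chemokine Ccl12 at -3.50. Cfp and Ccl12 are named after their values were seen. Counted by single probes, 21 named probes were at or below -3.59, the value of Pdcd4. Some of them belong to genes whose mean over probes lay higher, so these places hold for gene means. A further 11 of 20080 array probes without a gene name were at or below -3.59, with the lowest at -5.71.

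The same 9 genes were then set beside the CNT-1 column. This comparison shares the control column with the one that chose the genes, so the values stand side by side and support nothing further. All 9 lay below the control in CNT-1, between -1.46 for Selenop and -0.67 for Pde9a, with a median of -0.97, where the median over all genes was -0.04. The place of Igf2 among the 9 changed with the processing: it was at -1.71 with quantile normalization, the lowest of the 9, and at -0.44 without subtracting the control, the highest. At least 1 log2 unit below control were 4 of the 9, namely Selenop, Spata46, Clec2l and Gys2, against 2.15% of all genes. Pdcd4 at -0.97 and Igf2 at -0.94 lay just short of it, and with 75th percentile centring or quantile normalization the count was 5, with centring on the median or on spike-in probes 3. In place from the lowest, Selenop was at 109 and Pde9a at 812, so many other genes were lower than these 9 in CNT-1.

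**Figure D2:**
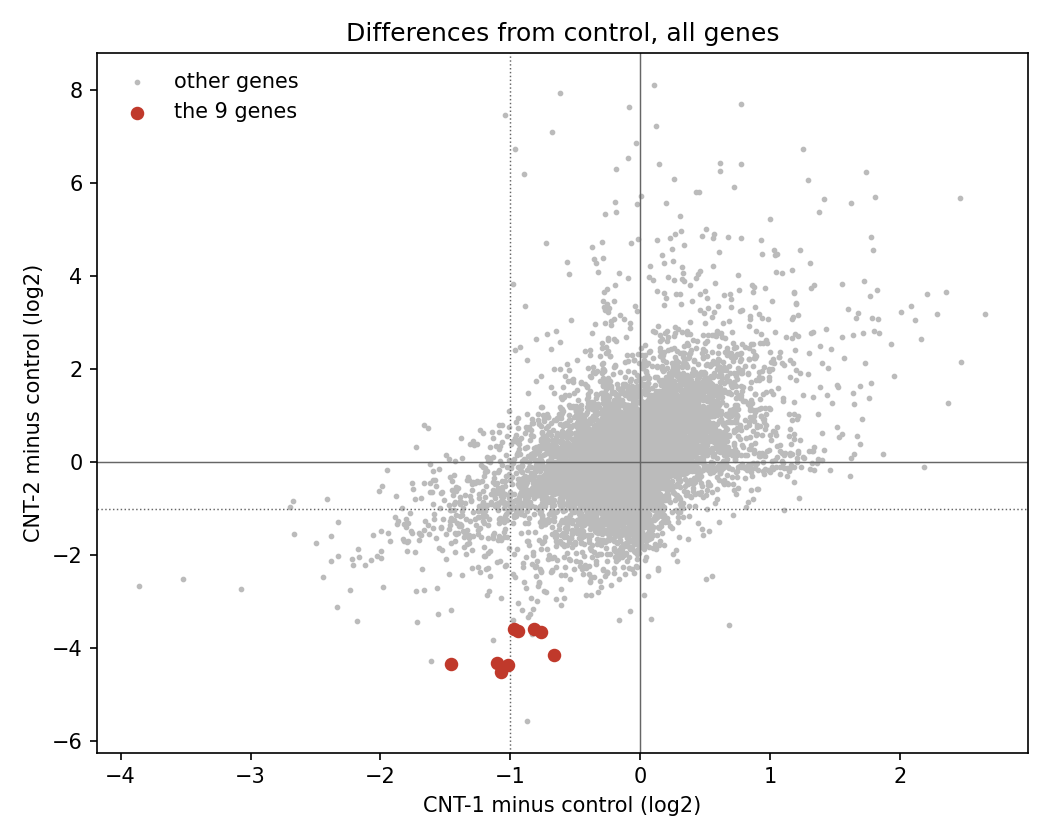
Difference from control in CNT-1 (horizontal axis, log2) and in CNT-2 (vertical axis, log2), with 1 point per gene, grey for the other genes and red for the 9 genes, and dotted lines at -1. Both axes subtract the same control column; the red points lie at the lower edge, between -1.46 and -0.67 on the horizontal axis and between -4.51 and -3.59 on the vertical axis.

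Set directly against each other, the nanotubes gave lower values in CNT-2 for all 9 genes. The CNT-2 minus CNT-1 difference ran from -3.48 for Pde9a to -2.62 for Pdcd4, with a median of -2.90 beside 0.15 over all genes. At least 1 log2 unit lower in CNT-2 than in CNT-1 were 9 of 9, against 4.65% of all genes, and this comparison shares the CNT-2 column with the choice. Pde9a lay lowest of the 9, ahead of Clec2l at -3.44 ± 0.22 and Gys2 at -3.35 ± 0.35 (probe SD, 2 probes each). Selenop was at -2.90 here, level with Abcd2 at -2.90, although it lay 0.69 below Abcd2 against the control. Doses and times were the same for both nanotubes, and with 1 column each the interval of a difference cannot be given.

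Scaling moved the sizes. Centring each column on its 75th percentile put the median of the 9 genes at -4.58 in CNT-2 against control, while the median of all genes went from 0.04 to -0.40. Centring on the 10 spike-in probes, which report added RNA and lay 0.25 above control in the CNT-2 column, gave -4.39 for the 9 genes and -0.20 for all. Quantile normalization, which gives the 3 columns 1 shared distribution, brought the median of the 9 to -2.45 against control and to -1.34 against CNT-1, with all 9 still at least 1 log2 unit lower in both. The 91 control and quality probes of the array ranged from -0.55 to 1.49 in CNT-2 minus control, so none was near the values of the 9 genes. The negative-control probe was at 0.16, -0.11 and 0.05 in the control, CNT-1 and CNT-2 columns. Since levels are not in the table, how near to background the CNT-2 signals of the 9 genes were was not measured.

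Each gene was next set beside the genes of its own pathway or family, with the 9 genes left out of every list. The 10 lists held 228 measured genes, 3 of them on more than 1 list. By the mean over its probes, no gene on these lists lay as low as the 9 in CNT-2: the lowest was at -2.86. For Pdk4, at -2.68, the 2 probes disagreed widely, with a probe SD of 3.41, so 1 of them lay lower still. The choice of the 9 on this difference nearly fixed the outcome for means, since only 4 other named genes on the array had means as low. The list medians in CNT-2 lay between -0.08 and 0.30, beside 0.04 for all genes, and several of them change sign with scaling, all 10 being negative with 75th percentile centring. Counts below are read against 6.56% of all genes at least 1 log2 unit lower and 10.1% at least 1 log2 unit higher in CNT-2. With 75th percentile centring 14.4% of all genes were that much lower, and the counts of lower genes in the lists went up too, to 8 for phosphodiesterases, 7 for FoxO targets, 6 for peroxisomal and 5 for glycogen genes. Counts of higher genes then fell, from 4 to 1 for glycogen and for selenium genes and from 3 to 1 for phosphodiesterases, and stayed at 4 for FoxO targets, so the balance within a list depends on the scaling.

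Selenop was set beside the other genes of selenium use. Of 29 measured genes for selenoproteins, selenocysteine synthesis and Selenop receptors, 2 were at least 1 log2 unit lower in CNT-2 and 4 higher, with a median of 0.03. With 75th percentile centring 4 were lower and 1 higher, and with quantile normalization 0 and 1. The lower ones were Pstk, a kinase that acts on the seryl-tRNA of selenocysteine synthesis, at -1.38 ± 0.50 (probe SD, 2 probes), and Sephs2, which makes the selenium donor, at -1.06. Txnrd3, a thioredoxin reductase, was at 2.00, and Lrp8, a receptor for Selenop, at 1.32. In CNT-1 none of the 29 was past the threshold as reported, with Txnrd3 at 0.99 and Lrp8 at 0.81.

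Gys2 was set beside 22 measured genes of glycogen synthesis and breakdown. In CNT-2, 4 were at least 1 log2 unit higher and 1 lower, with a median of 0.19, which centring on the 75th percentile turned to -0.24 and on spike-in probes to -0.050. Gys1, the glycogen synthase of muscle and most other tissues, was at 1.36, so the isoforms of the enzyme lay on opposite sides of the control. Stbd1, which tethers glycogen to membranes, was at 1.61 ± 0.08 (probe SD, 2 probes). Phkg1, a catalytic subunit of phosphorylase kinase, was at -1.54. In CNT-1 none of the 22 was past the threshold, and Gys1 was at 0.14.

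Lectins and phosphodiesterases related to Clec2l and Pde9a were divided. Of 12 measured C-type lectins of the natural killer gene complex, 1 was lower in CNT-2 by at least 1 log2 unit, the activating receptor Klrk1 at -2.86, and 2 were higher, the activation marker Cd69 at 4.72 and Klrg1 at 1.04. Their median was 0.24. With 75th percentile centring 2 lectins were lower and 1 higher (median -0.20), and with quantile normalization 3 and 1 (median -0.37). Of 31 phosphodiesterases and cyclic GMP signalling genes 4 were lower and 3 higher as reported, with a median of -0.08. Pde6a was at -1.75, Gucy1b1, a subunit of soluble guanylate cyclase, at -1.61 and Pde3b at -1.59. On the higher side the receptor cyclase Gucy2c was at 3.43 and Pde4c at 1.40. In CNT-1 none of either list was at least 1 log2 unit lower, apart from 1 lectin with 75th percentile centring and 1 gene of each list with quantile normalization. At least 1 log2 unit higher in CNT-1 were 2 of the 31, Gucy2c at 1.20 and the kinase Prkg2 at 1.05, against 1.16% of all genes.

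Abcd2 and Slc1a3 were set beside the genes of peroxisomes and of glutamate use. Of 29 peroxisomal genes 3 were at least 1 log2 unit lower in CNT-2 and 1 higher, with a median of 0.001. Pecr, an enoyl-CoA reductase, was at -1.69 and Ehhadh, an enzyme of peroxisomal beta-oxidation, at -1.19. The lipid carrier and thiolase Scp2 was at -2.28 ± 1.63 (probe SD, 2 probes), so its size is poorly set. Acaa1b, a peroxisomal thiolase, was at 1.29. Of 16 genes for glutamate transport and metabolism 1 was lower, glutamine synthetase, Glul, at -1.78 ± 0.65 (probe SD, 2 probes), and 4 were higher. With median, 75th percentile or spike-in centring 2 were lower and 2 higher, and with quantile normalization 0 and 2. The neutral amino acid transporter Slc1a4, of the same family as Slc1a3, was at 2.99, and the glutamine transporter Slc38a2 at 2.37 ± 0.19 (probe SD, 2 probes).

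Igf2 stood beside 19 measured genes of the insulin-like growth factor system, of which 1 was lower and 2 higher in CNT-2. Igf2r, the receptor that clears Igf2, was at 1.47, and the RNA-binding protein Igf2bp2 at 1.10. Igf2bp3 was at -1.04 in CNT-2 and at -1.46 in CNT-1. For Pdcd4, none of 18 genes of translation initiation around eIF4A was past 1 log2 unit in either direction in either nanotube, with a range of -0.77 to 0.79 in CNT-2. With 75th percentile or spike-in centring 1 of the 18 was at least 1 log2 unit lower in CNT-2.

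For Spata46, 29 spermatid and sperm genes were measured, of which none was at least 1 log2 unit lower and 2 were higher in CNT-2, with a median of 0.09. In CNT-1 2 of the 29 were lower, the protamine Prm2 at -1.16 and the sperm-egg fusion protein Izumo1 at -1.15, against 2.15% of all genes. With 75th percentile or spike-in centring 4 of the 29 were lower in CNT-2, and the count in CNT-1 stayed at 2. In CNT-2 Ldhc, the lactate dehydrogenase of sperm, was at 2.81, and Hspa1l at 1.13. FoxO factors and their reported targets were listed because Selenop is a reported FoxO target. Of 26 measured, 3 were lower and 4 higher in CNT-2, with a median of -0.05. Txnip, an inhibitor of thioredoxin, was at -2.38, Tnfsf10, a death ligand, at -1.45, and Pdk4, which restrains pyruvate oxidation, at -2.68 ± 3.41 (probe SD, 2 probes). Il7r, at 2.80 ± 0.07 (probe SD, 3 probes), and Gadd45a, at 2.68, were the highest. In CNT-1 2 of the 26 were lower, Pdk4 at -1.98 ± 0.78 (probe SD, 2 probes) and the ubiquitin ligase subunit Fbxo32 at -1.20. That list was drawn up with values of Txnip and Pdk4 already known.

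**Figure D3:**
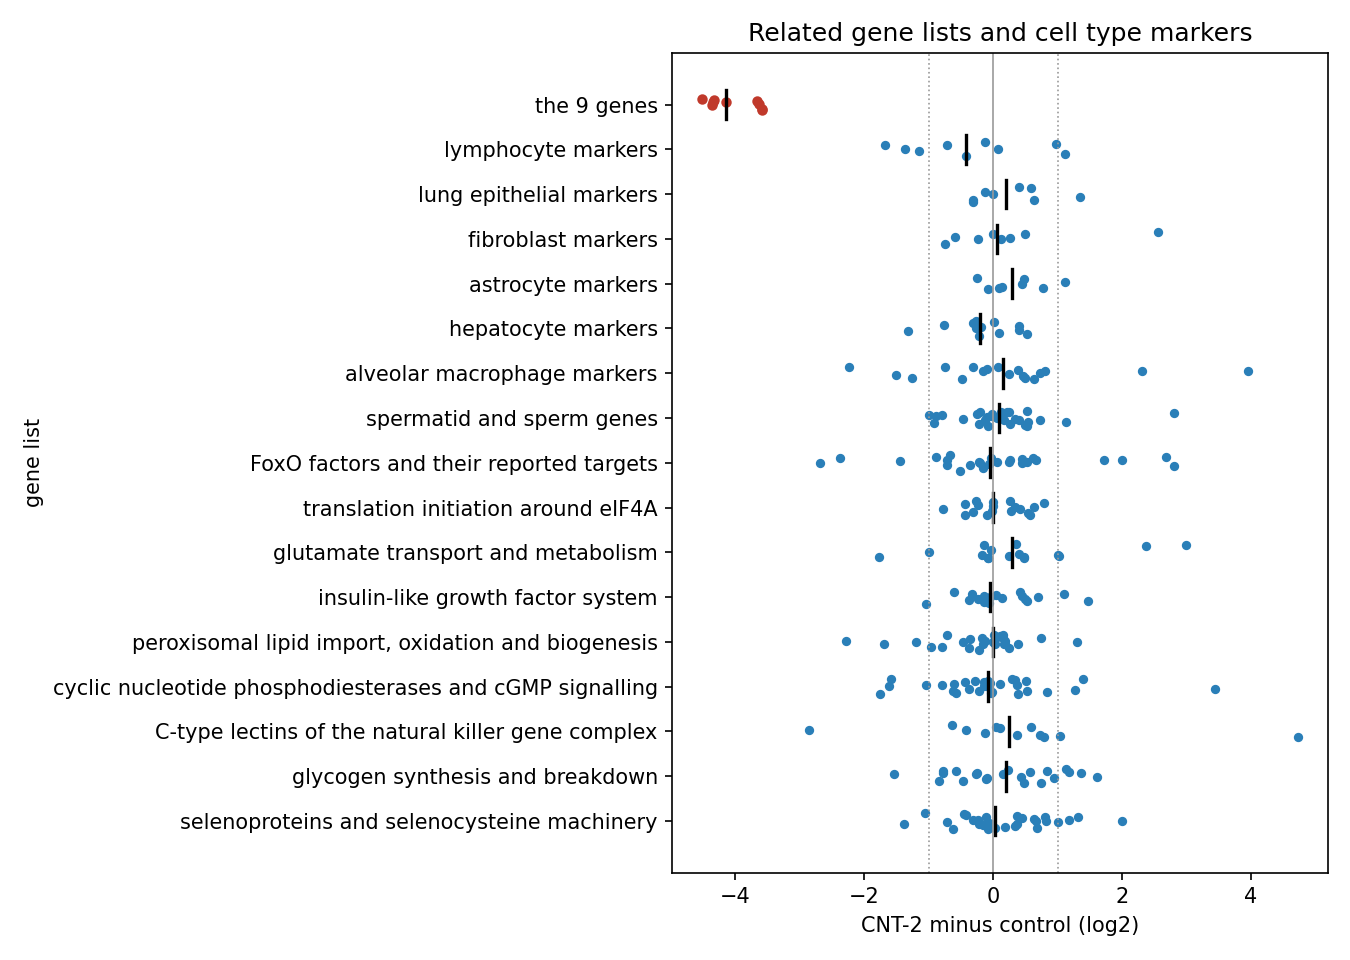
CNT-2 minus control (log2, horizontal axis) for each measured gene of the 10 related lists and the 6 marker lists (rows, blue points) and for the 9 genes (red points), with black bars at the medians and dotted lines at -1 and 1. Each point is the mean over the probes of a gene, so probes that disagree, as for Pdk4, are not shown. The 9 genes, which were chosen on this difference, lie between -4.51 and -3.59 and the lowest gene of any other row at -2.86. The small vertical scatter within a row has no meaning.

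Because several of the 9 genes are better known from other tissues, markers of those cells were listed too. The table holds no levels, so the macrophage label was not checked by abundance. Genes whose probes all lay within 0.02 of the negative-control probe in the control column, called background-like here, numbered 1 of 12 hepatocyte, 1 of 8 astrocyte, 2 of 8 fibroblast, 1 of 8 lung epithelial, 1 of 9 lymphocyte and 0 of 18 alveolar macrophage markers. None of the 9 genes was background-like by this measure, which does not tell how far above background a gene lay. In CNT-2, 1 of 12 hepatocyte markers was at least 1 log2 unit lower, transferrin, Tf, at -1.32, and none higher, with a median of -0.21. None of 8 astrocyte markers was lower and 1 higher, Aldh1l1 at 1.11, with a median of 0.29. None of 8 fibroblast and none of 8 lung epithelial markers was lower, and 1 of each was higher, the proteoglycan Dcn at 2.56 and the keratin Krt18 at 1.34 ± 0.52 (probe SD, 2 probes). Of 9 lymphocyte markers 3 were lower, Nkg7 at -1.67, Cd79a at -1.37 and Cd8a at -1.14, and 1 higher, the granzyme Gzmb at 1.12. Their median, -0.43, was the lowest of the 16 lists, as it was in CNT-1, at -0.44. Of 18 alveolar macrophage markers 3 were lower, the mannose receptor Mrc1 at -2.24 ± 0.13 (probe SD, 2 probes), the cytokine receptor subunit Csf2rb at -1.51 and the growth factor receptor Csf1r at -1.25 ± 0.60 (probe SD, 2 probes). The 2 higher ones were the lipid-binding protein Fabp4 at 3.96 and the transcription factor Bhlhe41 at 2.31. These marker counts are as reported. With 75th percentile centring 2 hepatocyte, 2 fibroblast, 4 lymphocyte and 4 alveolar macrophage markers were lower, against 14.4% of all genes. No astrocyte, lung epithelial or lymphocyte marker was then higher. With quantile normalization 0 hepatocyte, 1 astrocyte, 1 fibroblast, 2 lymphocyte and 3 alveolar macrophage markers were lower. The culture was a single line, so these markers name tissues in which the genes are known and do not count cells of those kinds. In bulk, a change in all cells of the line and a change in some of them cannot be told apart. The part of these markers in the values of the 9 genes was not tested.

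The 9 genes lie on 6 chromosomes of build GRCr8, with Igf2 and Pdcd4 on chromosome 1, Selenop and Slc1a3 on 2, Clec2l and Gys2 on 4, Abcd2 on 7, Spata46 on 13 and Pde9a on 20. The 2 nearest measured genes on either side of each were looked up, 36 in all, a comparison added after the values were seen. The order of genes is that of GRCr8, and genes not on the array lie between many of them. In CNT-2, 6 of the 36 were at least 1 log2 unit below control, 16.7% against 6.56% of all genes, and 2 were above, with a median of -0.21. The neighbours were counted as reported only, while the share of all genes ran from 4.17% to 14.4% with other scalings. In CNT-1 none was lower and 1 was higher, against 2.15% and 1.16% of all genes. The lowest neighbour was Ghr, the growth hormone receptor, beside Selenop, at -2.68 in CNT-2 and -0.30 in CNT-1, the mean of 3 probes. Ldhb, a lactate dehydrogenase subunit beside Gys2, was at -1.53, and Nipbl, the cohesin loader beside Slc1a3, at -1.55. Nadk2, also near Slc1a3, was at -1.05, and the neighbours of Clec2l, Tbxas1, the thromboxane synthase, and Luc7l2, were at -1.07 and -1.05. Nadk2, Tbxas1 and Luc7l2 thus lay just past the threshold. Around Igf2, the imprinted non-coding RNA H19 was at -0.23 and insulin, Ins2, at 0.44 in CNT-2, against -3.63 for Igf2 itself. All neighbours named here were chosen after their values were seen.

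**Figure D4:**
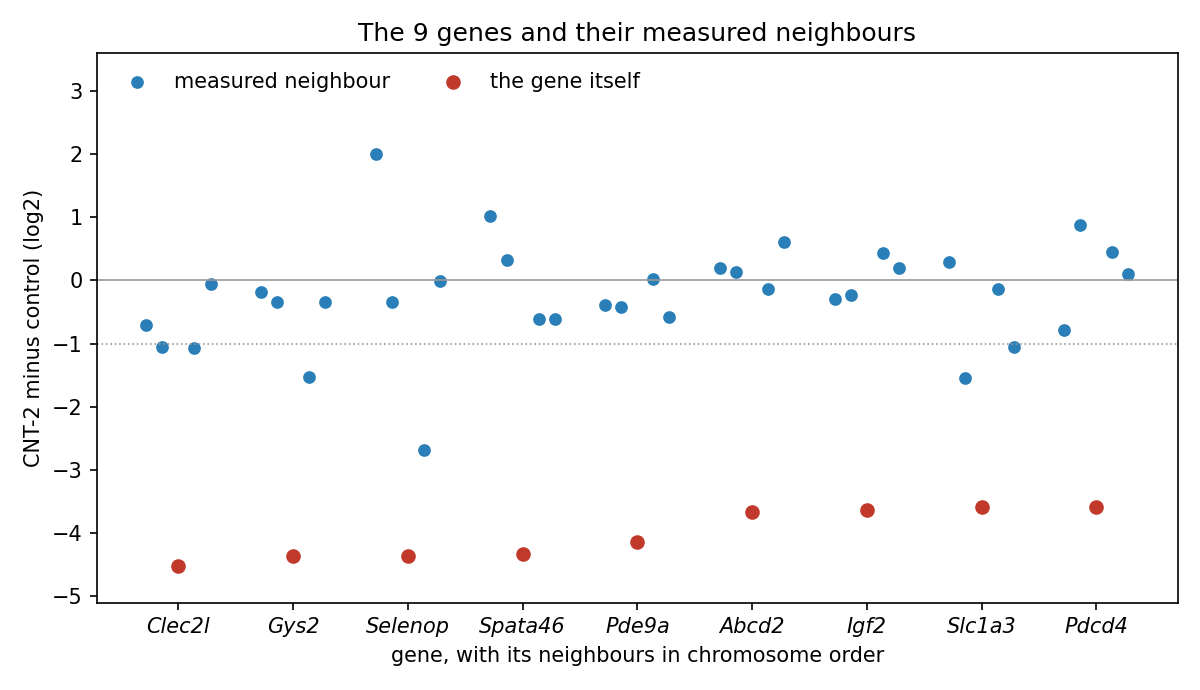
CNT-2 minus control (log2, vertical axis) for each of the 9 genes (red) and its measured neighbours in chromosome order, 2 on each side (blue), with a dotted line at -1 and horizontal positions that show order and not distance. Each red point lies below all the blue points beside it, which the choice of the 9 on this difference nearly fixed. Ghr at -2.68 is the lowest blue point.

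The genes most like each of the 9 were found by the distance in the pair of differences from control, CNT-1 and CNT-2, over 2 exposures. As both differences share the control, closeness describes these columns alone. Gys2 and Spata46 were 0.10 apart and each was the nearest gene to the other. Igf2 and Pdcd4 were nearest to each other at 0.054, and Abcd2 and Slc1a3 were 0.091 apart. The nearest gene to Selenop was Ptgs1 at 0.17, with -1.61 in CNT-1 and -4.28 in CNT-2. The nearest to Abcd2 was Cxcl10 at 0.075, with -0.83 in CNT-1 and -3.70 in CNT-2. Pde9a had no gene closer than 0.41, which was Gys2, so its pair of a small CNT-1 and a large CNT-2 difference was the most isolated of the 9.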

How the data were processed

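Total RNA of NR8383 cells was labelled with Cy3, hybridised to 1-colour Agilent arrays and the scans were quantified by Agilent Feature Extraction, version 10.7.3.1, per the labels' protocols and the submitters' processing notes. The deposited table held 41103 probes and 3 columns of values, taken as log2 differences that the authors had centred per probe on an unstated baseline. Both signs, column medians of 0.01, -0.04 and 0.06 for control, CNT-1 and CNT-2, and a range of -5.71 to 8.82 led to that reading. No source used here states the log base, the between-array normalization or the direction, and a natural log base is possible, so folds hold only for base 2. Each group had 1 column, so no test, p-value, interval or SD over samples was made, and the number of arrays limits the precision.

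Probes were named through the platform annotation: 20932 had 1 symbol, 0 several and 20171 none. RefSeq accessions of assembly GRCr8 named 17415, 3113 kept a current symbol, 396 older symbols were updated and 8 stayed unmatched, giving 15924 genes. Selenop was found under its older symbol. The value of a gene is the mean over its probes, counted past 1 log2 unit. Named were all 9 genes, in each related list the 3 lowest and 2 highest past that threshold in CNT-2, the 2 genes nearest in the pair of differences, and non-members below the lowest of the 9. Markers, neighbours and list genes named for CNT-1 were chosen after their values were seen. Alternatives were other scalings, probe rules, probe filters and a threshold of 2. The counting was run on simulated data in which some genes were lowered far past the threshold over small noise. That setting nearly fixed its outcome, so it checks the code alone and not the noise of these arrays. The genes and lists were chosen with earlier results of these data known. A planned protein comparison was not made. Python 3.11.15, pandas 2.3.3 and numpy 2.4.6 were used.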

Additional observations from a re-analysis of the deposited data

How the results depend on the processing

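All 9 genes stayed below control in CNT-1 and in CNT-2, and below CNT-1 in CNT-2, under each alternative that kept them. The median of the 9 in CNT-2 minus control was -4.14 as reported, -4.58 with 75th percentile centring, -4.39 with spike-in centring, -4.36 with genes of 2 or more probes only (3 of the 9) and -2.45 with quantile normalization. For CNT-2 minus CNT-1 it was -2.90 as reported and -3.28, -3.18, -3.35 and -1.34 in the same order. These moved by more than the median probe SD, 0.187 and 0.168; the CNT-1 median stayed within 0.076 of -0.97. Of 213 values for single genes under alternatives, 62 moved by more than that SD and none changed sign. Part of the 213 could not move, since a gene of 1 probe is the same under every probe rule. The median of 2 probes is also their mean. The centrings shifted a column by too little to change the sign of CNT-2 differences that were chosen for their size. With quantile normalization the highest of the 9 took place 106 from the lowest in CNT-2, in place of 13.

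Counts of genes past the threshold moved too, in part because filters leave fewer genes. Genes at least 1 log2 unit below control in CNT-2 numbered 1045, and 2297 with 75th percentile centring, 1618 with spike-in centring, 664 with quantile normalization, 207 with 2 or more probes only (5.29% of those 3910 genes, against 6.56% of 15924) and 168 at 2 log2 units. Below control in CNT-1 were 342, and 709 with quantile normalization, 197 without subtracting the control, 118 of 11731 with probes near 0 in the control only, 36 of 3910 with 2 or more probes only and 25 at 2 log2 units. Below CNT-1 in CNT-2 were 741, and 1563, 1276, 369, 135 (of 3910) and 76 in the order given for CNT-2. Of genes past the threshold in CNT-2, 39.3% were lower, against 73.3% with 75th percentile, 59.5% with spike-in centring and 47.5% with quantile normalization. In CNT-1 65.0% were lower, against 54.1% with quantile normalization, 44.4% without subtracting the control and 48.0% with probes near 0 only. In CNT-2 minus CNT-1 33.3% were lower, against 44.3% with median centring, 67.1% with 75th percentile, 58.7% with spike-in centring and 47.9% with quantile normalization. The cause of these shifts was not tested.

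No paired analysis was possible because each group had 1 column, and for the same reason no replicate was left out. A filter on low levels was not run, since the table holds no levels, nor was the direct comparison without subtracting the control.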
